A study of Mus musculus with 50 samples.

Results

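The knockout effect examined here is the change made by constitutive loss of Hdac1 and Hdac2 in mouse microglia, and how that change differed between birth and 2 weeks of age. The members are the 13 libraries of 4 groups, out of 50 libraries in the series, and the measure is the knockout minus control difference at 2 weeks less the same difference at birth, for every gene tested. Knockout mice carried loxP-flanked alleles of both genes on both chromosomes and a Cx3cr1-Cre transgene, and control mice carried the same floxed alleles without Cre. None of these animals was treated. There were 4 control and 3 knockout libraries from postnatal day 0 (P0), and 4 control and 2 knockout libraries from 2 weeks (14 days). Newborns were decapitated and 2-week animals were perfused before brain cells were sorted by flow cytometry and total RNA was sequenced, so age and the way blood was cleared cannot be told apart. Because the controls lack Cre, carrying Cre and losing the 2 deacetylases cannot be told apart either, and the labels do not say whether the Cre sits in the Cx3cr1 gene itself.

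HDAC1 and HDAC2 are zinc-dependent enzymes that remove acetyl groups from lysines of histones and other proteins. They are the catalytic core of the SIN3, NuRD and CoREST corepressor complexes, and either can often stand in for the other. Microglia are the resident macrophages of the brain. They come from the yolk sac, divide and clear debris around birth, and then take on a ramified resting state marked by genes such as P2ry12, Tmem119 and Sall1. Cx3cr1, the receptor for the neuronal chemokine fractalkine, is active in microglia and in other macrophages and monocytes, so Cre driven by it is not limited to microglia.

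The 13 libraries held 12307658 to 22605783 counts, and levels below are CPM computed on library sizes scaled by TMM. Numbers such as 68 or 89 are the labels' own names for libraries. Hdac1 stood at 11.5, 11.0, 13.4 and 12.1 CPM in the P0 controls and at 27.1, 7.52 and 6.69 CPM in P0 knockouts 68, 73 and 76. At 2 weeks it stood at 21.2, 22.8, 23.7 and 21.8 CPM in the controls and at 10.4 and 18.3 CPM in knockouts 80 and 89. The library labelled knockout 68 was above every P0 control, and both 2-week knockouts were below every 2-week control. Hdac2 averaged 139.5 CPM in P0 controls against 113.1 in P0 knockouts, and 80.6 against 64.5 at 2 weeks. Neither gene passed the test at either age, with log2 changes of 0.20 and -0.64 for Hdac1 and -0.30 and -0.32 for Hdac2. Their interactions, the 2-week effect less the P0 effect, were -0.84 ± 0.57 (SE, adjusted p = 0.3) and -0.02 ± 0.30 (adjusted p = 1) and did not pass. Without the library labelled knockout 68 the Hdac1 interaction was 0.11. The labels do not name the exons between the loxP sites, and reads outside those exons do not check the deletion. The 2 knockout libraries at 2 weeks differed more from each other than any other pair of replicates, with a chi-square per gene of 99.14 against 9.27 to 35.98.

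Markers of other cells moved with the knockout, and differently at the 2 ages. Summed over 17 genes, neutrophil markers made up 906.1 to 1833 CPM in P0 controls and 6238 to 9429 CPM in P0 knockouts. At 2 weeks the same sum was 556.5 to 1540 CPM in controls, 20720 CPM in knockout 80 and 67320 CPM in knockout 89. The 12 monocyte markers summed to 252.9 to 360.5 CPM and 988.8 to 1327 CPM at P0, and to 24.9 to 91.8 CPM against 2392 and 6063 CPM at 2 weeks. Both sums were higher in every knockout than in every control at each age, and highest in knockout 89. Neuron markers (18 genes) summed to 1026 to 2000 CPM in P0 controls and 2783 to 3266 CPM in P0 knockouts, but to under 10 CPM in each 2-week library. The share of such cells and their part in the changes below was not tested. In these bulk libraries fewer cells of a type and less RNA per cell cannot be told apart.

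**Figure D1:**
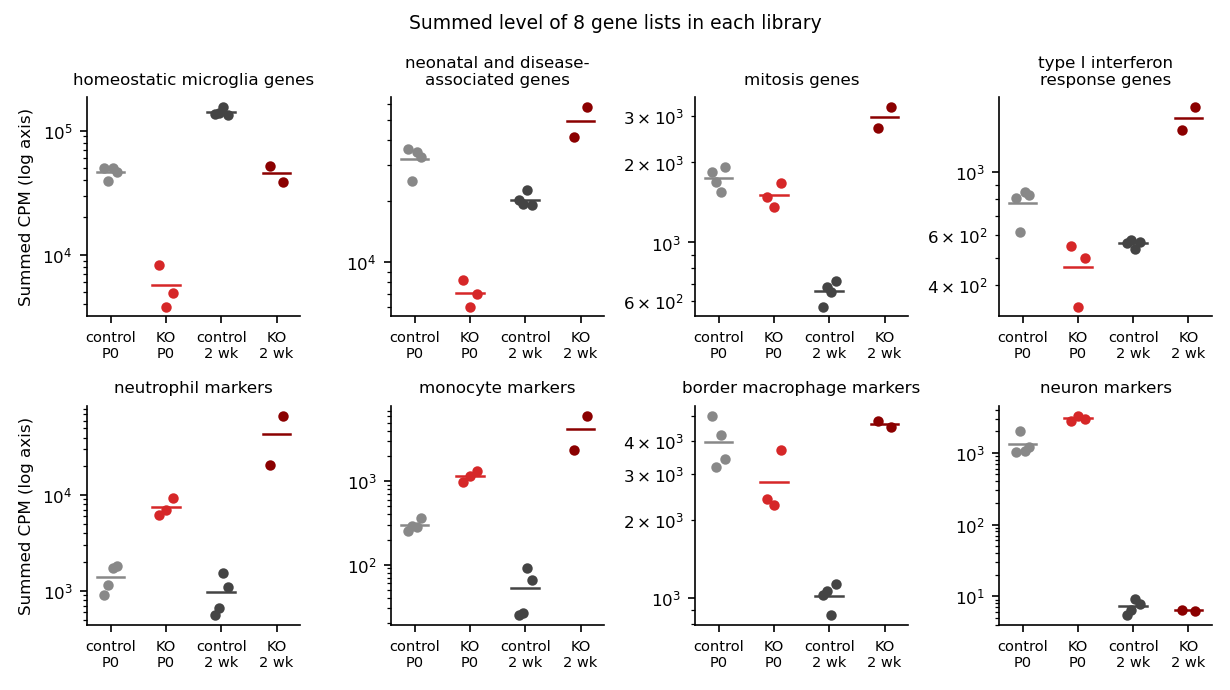
Summed level of 8 gene lists in each library, in CPM on a log axis, by group; each dot is a library and each bar the group mean. Neutrophil and monocyte markers were higher in the knockouts at both ages, neuron markers were at 1026 CPM or more at P0 and at 9.12 CPM or less at 2 weeks, and summed neonatal and disease-associated genes lay below the controls at P0 and, through Apoe and Lyz2, above them at 2 weeks.

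Of 19997 genes tested with edgeR's quasi-likelihood test, whose p-values were adjusted by Benjamini-Hochberg at 0.05 throughout, 4336 (21.7%) had an interaction above 0 and 1814 (9.07%) below 0. At P0 the knockout raised 3250 genes (16.3%) and lowered 4115 (20.6%). At 2 weeks it raised 3724 genes (18.6%) and lowered 2936 (14.7%). The effect reversed where 534 genes (2.67%) fell at P0 and rose at 2 weeks and 362 (1.81%) rose and then fell. It grew for 2077 genes with a rise (10.4%), of which 1557 passed at 2 weeks alone, and for 863 with a fall (4.32%), of which 775 passed at 2 weeks alone. For genes that passed at 2 weeks alone, the P0 effect could have either sign. The median P0 effect (log2) was 0.11 for rises that grew and 0.13 for falls that grew. The effect faded for 1567 genes with a fall (7.84%) and for 319 with a rise (1.6%), and 428 genes (2.14%) with a called interaction met none of these definitions. These shares of all genes are the background for each list count below.

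How many genes fell at P0 depended on the scaling and on knockout 73. TMM put the median P0 effect of all genes at 0.04 (log2) and the median interaction at 0.112. DESeq2's size factors in edgeR put them at 0.26 and -0.10, and library totals alone at 0.41 and -0.18, so P0 falls are read here against that shift. The share of called interactions that were above 0 was accordingly 70.5% under TMM, 59.1% under those size factors, 57% in DESeq2 itself and 55% under totals. Under totals 6190 genes rose and 2208 fell at P0. Without knockout 73, 2353 genes fell at P0 and 267 fell and then rose, while without knockout 89, 1885 genes fell at 2 weeks, 333 fell and then rose and 544 had a fall that grew. Under all 20 other settings tried, 104 of the 534 genes that fell then rose kept that pattern, 101 of the 362 that rose then fell, 1045 of the 2077 whose rise grew, 224 of the 863 whose fall grew, 675 of the 1567 whose fall faded and 59 of the 319 whose rise faded. The genes named below by the naming rule kept their pattern in all 20 unless a count of settings is given. Genes named as the largest of a pattern had to show no overlap at each called age, so that is no added support for them. No overlap at each called age held for 482 of 534 genes that fell then rose and 303 of 362 that rose then fell. It held for 2038 of 2077 rises that grew, 837 of 863 falls that grew, 300 of 319 rises that faded and 1531 of 1567 falls that faded.

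**Figure D2:**
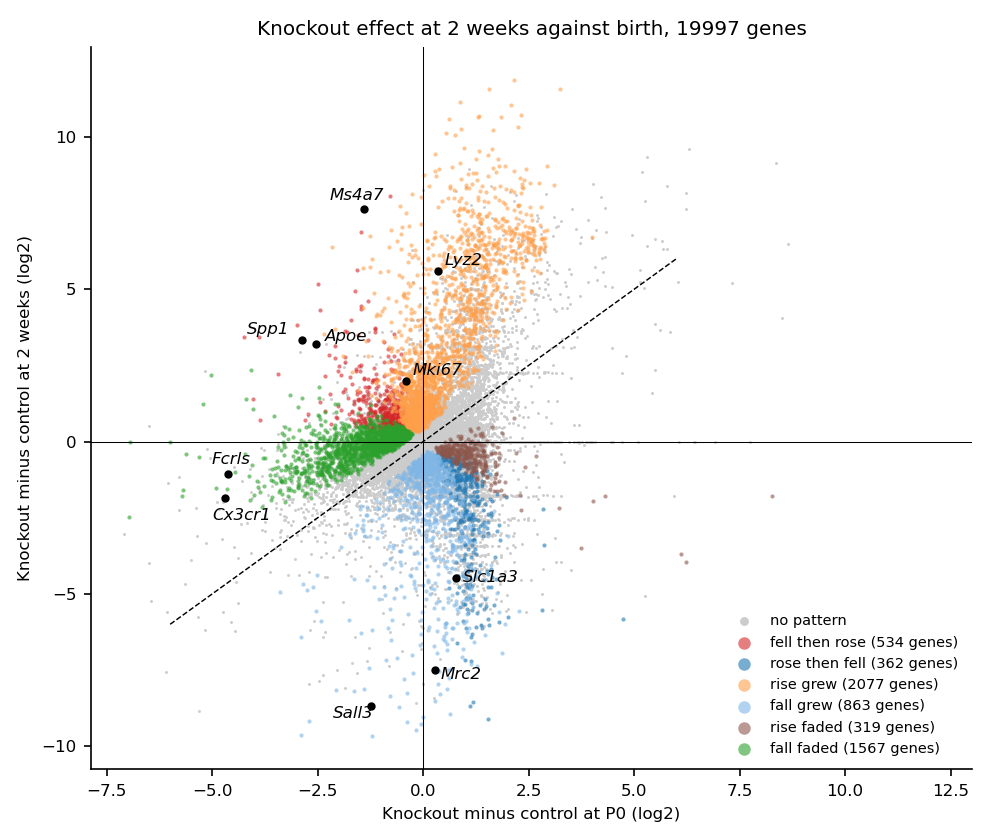
Knockout minus control at 2 weeks (y axis, log2) against the same at P0 (x axis, log2) for 19997 genes, coloured by pattern; grey genes have no pattern and the dashed line marks equal effects. Ms4a7, Spp1 and Apoe lie at upper left (fell then rose), Cx3cr1 and Fcrls at the left with smaller falls at 2 weeks, and Sall3 and Mrc2 at the bottom.

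The change from P0 to 2 weeks had opposite signs in the 2 genotypes for 3 of the 6 patterns, by their medians. For genes that fell then rose, the median change from P0 to 2 weeks was -0.38 (log2 of CPM plus 0.5) in controls and 1.27 in knockouts, against -0.17 and 0.03 over all genes tested. For genes whose rise grew it was -1.02 in controls and 0.53 in knockouts, a decline with age in controls beside a rise in knockouts. For genes that rose then fell the medians were -0.38 and -3.0, and for genes whose fall grew 0.63 and -0.70. Both genotypes had medians of 1 sign for genes whose fall faded (0.34 in controls and 1.46 in knockouts) and for those whose rise faded (-0.74 and -1.99). These medians use the libraries that set the patterns and describe them without a test.

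Several genes that fell then rose are known products of newborn and disease-associated microglia. In the list of such genes, 25 of 26 had an interaction above 0, 19 fell and 1 rose at P0, and 14 rose and 1 fell at 2 weeks. Under library totals 7 rose at P0, and 2 fell at 2 weeks without knockout 80 or 68. The median effect of the list was -1.73 at P0 and 1.31 at 2 weeks, and its median interaction was 2.82, against 0.112 over all genes. Summed, the list lay at 25190 to 36110 CPM in P0 controls and 6056 to 8210 CPM in P0 knockouts. At 2 weeks it lay at 19040 to 22820 CPM in controls and at 41200 and 57930 CPM in knockouts, so the groups did not overlap at either age and changed order. The change of order rests on Apoe and Lyz2. Without those, the other 24 members summed to 17140 to 25070 CPM in P0 controls and 3125 to 5351 CPM in P0 knockouts, and to 17200 to 20090 CPM in 2-week controls against 16140 and 17460 CPM in 2-week knockouts, groups that overlapped. The pattern was fell then rose for 7 members, rise grew for 7 and fall faded for 11.

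Apoe, the main lipid carrier secreted by glia (chr7:19696109-19699188, minus strand, GRCm38), stood at 9950, 7070, 9681 and 8498 CPM in P0 controls and at 1581, 1439 and 1513 CPM in P0 knockouts. The 2-week controls held 2055, 1747, 2231 and 1547 CPM and the 2-week knockouts 16340 and 18400 CPM. Every P0 knockout lay below every P0 control and both 2-week knockouts lay above every library of the other 3 groups. The log2 change was -2.54 ± 0.17 at P0 (adjusted p = 1.06e-07) and 3.20 ± 0.17 at 2 weeks (adjusted p = 4.42e-09), an interaction of 5.74 ± 0.25 (adjusted p = 1.91e-09). Between the ages Apoe went down in controls and up in knockouts.

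Spp1, which encodes the secreted phosphoprotein osteopontin (chr5:104435118-104441050, plus strand), ran at 1130, 802.8, 895.8 and 975.6 CPM in P0 controls and at 91.1, 103.3 and 192 CPM in P0 knockouts. The 2-week controls held 22.2, 14.98, 25 and 26.2 CPM and the 2-week knockouts 173.2 and 266.5 CPM. The groups were apart at both ages, but the 2-week knockouts stayed below every P0 control. Its interaction was 6.202 ± 0.39 (adjusted p = 6.37e-08). Igf1, a growth factor that newborn microglia supply to neurons and oligodendrocytes, stood at 149.7 to 202.7 CPM in P0 controls and at 36.4, 33.0 and 46.6 CPM in P0 knockouts, then at 14.7 to 17.8 CPM in 2-week controls and at 144 and 91.3 CPM in 2-week knockouts. Its log2 change went from -2.23 ± 0.17 to 2.85 ± 0.18. Gpnmb, a glycoprotein of lysosomes, averaged 39.7 and 7.30 CPM in control and knockout at P0, and 0.192 and 3.87 CPM at 2 weeks, so its rise at 2 weeks was one from a level near 0. Spp1 shares exon bases with a predicted gene, as do Folr2, Cdkn1c, Ebf3, Gas1, Dzip1 and Bhlhe41, and Cxcl16 shares some with Zmynd15. The libraries do not mark strand, so those reads cannot be assigned.

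C3ar1, the receptor for complement C3a, averaged 621.1 CPM in controls and 113.1 in knockouts at P0, and 349.5 against 866.3 CPM at 2 weeks. Its interaction was 3.77 ± 0.23 (adjusted p = 3.1e-08), and the groups did not overlap at either age. Cxcl16, a membrane-bound chemokine, averaged 24.3 against 6.74 CPM at P0 and 33.7 against 206.3 CPM at 2 weeks (interaction 4.47 ± 0.22, adjusted p = 5.56e-09). The chemokine Ccl12 and the inflammasome protease Casp1 reversed in the same direction, with interactions of 3.92 ± 0.36 and 1.70 ± 0.22. Over the 24 tested inflammatory cytokine and inflammasome genes, 17 had an interaction above 0, 14 fell and 3 rose at P0, and 14 rose and 4 fell at 2 weeks. The 3 rises at P0 and 4 falls at 2 weeks were near the 16.3% and 14.7% of all genes. The pattern was fell then rose for 6, rise grew for 6 and fall faded for 5. Without the libraries labelled knockout 68 or 76 or P0 control 74, 1 rose at P0.

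**Figure D3:**
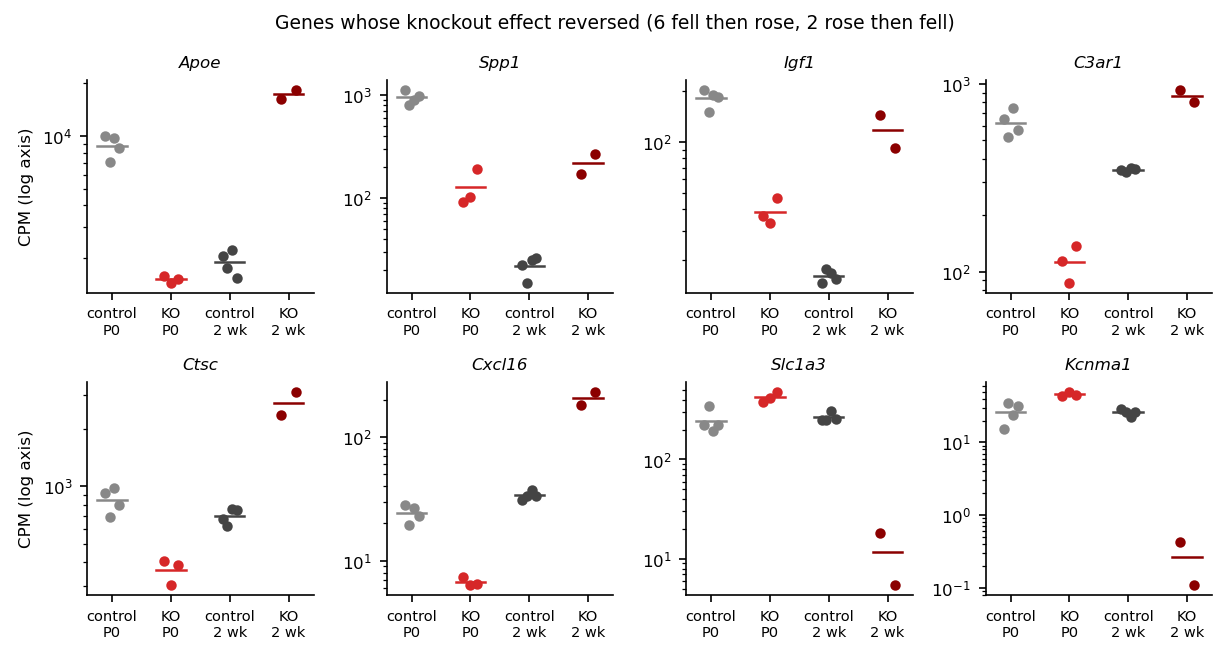
CPM (log axis) of 8 genes whose knockout effect reversed, by group; each dot is a library and each bar the group mean. In the first 6 panels the P0 knockouts lie below and the 2-week knockouts above their controls, and for Slc1a3 and Kcnma1 the order is the opposite.

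Markers of border macrophages, the cells of the meninges and perivascular spaces, included genes that reversed. All 13 tested markers had an interaction above 0, 8 fell and 1 rose at P0, and 12 rose at 2 weeks. The pattern was fell then rose for 7, rise grew for 5 and fall faded for 1. Without knockout 73, 4 fell at P0. The summed level was 3194 to 5000 CPM in P0 controls, 2276 to 3707 CPM in P0 knockouts, 862.4 to 1130 CPM in 2-week controls, and 4769 and 4540 CPM in 2-week knockouts. The P0 groups overlapped in this sum and the 2-week groups did not. Whether these markers come from other macrophages in the sort or from microglia was not tested.

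Pf4, a platelet-factor chemokine of border macrophages, averaged 408.5 and 238 CPM in control and knockout at P0 and 2.94 and 772.8 CPM at 2 weeks. Its P0 fall of -0.78 ± 0.22 kept the pattern in 15 of 20 settings and did not pass without knockout 68 (adjusted p = 0.0582) or 73 (adjusted p = 0.14). Cbr2, a carbonyl reductase, stood at 39.3, 38.6, 40.3 and 35.4 CPM in P0 controls and at 4.78, 4.78 and 4.86 CPM in P0 knockouts. By 2 weeks controls held 3.66, 2.42, 3.30 and 3.67 CPM and knockouts 29.8 and 62.5 CPM. The groups were apart at both ages and the interaction was 6.82 ± 0.35 (adjusted p = 7.32e-09). The folate receptor Folr2 followed the same course (interaction 7.22 ± 0.52, adjusted p = 1.58e-07), at 17.2 CPM on average in the 2-week knockouts. Mrc1, the macrophage mannose receptor, averaged 697.7 and 365.4 CPM at P0 and 147.4 and 1419 CPM at 2 weeks. Its P0 fall did not pass without knockout 73 (adjusted p = 0.0758), and its pattern held in 17 of 20 settings.

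The Ms4a family encodes tetraspan membrane proteins that lie side by side on chromosome 19 and include receptors and modulators of immune cells. All 12 tested members rose at 2 weeks and 11 had an interaction above 0, while 3 rose and 4 fell at P0. Without knockout 73, 2 fell at P0. The family's median effect was 0.10 at P0 and 6.602 at 2 weeks. Ms4a7 (chr19:11321039-11336146, minus strand) stood at 84.3, 42.5, 59.4 and 46.4 CPM in P0 controls and at 14.0, 22.9 and 28.7 CPM in P0 knockouts. By 2 weeks controls held 1.26, 0.828, 2.12 and 1.45 CPM and knockouts 277.5 and 277.7 CPM. The groups were apart at both ages and the 2 late knockouts were nearly equal. The border macrophage sum was also close in those 2 libraries, but its members differed both ways. Mrc1 stood at 1747 and 1090 CPM in knockouts 80 and 89, and Cbr2 at 29.8 and 62.5 CPM. With 2 libraries, genes that vary together cannot be told from others, and the source of the Ms4a7 reads was not tested. The interaction of Ms4a7 was 9.04 ± 0.45 (adjusted p = 7.38e-09), with the pattern kept in 19 of 20 settings. Ms4a4a averaged 85.6 and 70.9 CPM at P0 and 0.753 and 219.4 CPM at 2 weeks (interaction 8.41 ± 0.60, adjusted p = 5.18e-07). Reads of family members that resemble each other may be shared between them.

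Genes that rose then fell included an ion channel, a transcription factor, a transporter and a cell-cycle inhibitor. Kcnma1, the large-conductance calcium-activated potassium channel, stood at 15.2, 34.5, 24.2 and 31.6 CPM in P0 controls and at 44.0, 49.6 and 44.5 CPM in P0 knockouts. The 2-week controls held 28.4, 26.2, 22.3 and 26.6 CPM and the 2-week knockouts 0.429 and 0.108 CPM. The groups did not overlap at either age, as its naming required, and the interaction was -7.40 ± 0.52 (adjusted p = 1.11e-07). Ebf3, a transcription factor of the early B-cell factor family, went from 8.03 and 15.9 CPM at P0 to 17.6 and 0.115 CPM at 2 weeks, with an interaction of -8.16 ± 0.54 (adjusted p = 8e-08). Slc1a3, the glutamate transporter known from astrocytes, averaged 246.5 and 422.9 CPM at P0 and 264.4 and 11.8 CPM at 2 weeks. Its fall at 2 weeks was -4.50 ± 0.41 (adjusted p = 1.24e-06). Its P0 rise of 0.78 ± 0.28 (adjusted p = 0.0402) did not pass without any one of knockouts 68, 73 and 76 (adjusted p = 0.055, 0.0548 and 0.116) or controls 69, 71 and 74 (adjusted p = 0.0895, 0.102 and 0.087), and the pattern held in 13 of 20 settings. Slc1a3 is on the list of astrocyte and radial glia markers, of which 11 of 14 rose at P0. The other 13 summed to 817.2 to 1390 CPM in P0 controls and 2361 to 2519 CPM in P0 knockouts. At 2 weeks they summed to 18.8 to 37.4 CPM in controls and 329.1 and 723.2 CPM in knockouts. Most of that 2-week knockout sum was Vim, a filament protein that many cell types make. Vim stood at 296.6 and 682.9 CPM there, against 2.16 to 8.65 CPM in 2-week controls. Of the 14 markers 3 rose and 2 fell at 2 weeks. Aqp4, on the same list, rose then fell like Slc1a3, with the pattern in 19 settings. It averaged 28.0 and 70.4 CPM at P0 and 0.944 and 0.111 CPM at 2 weeks. The part of the other markers in the Slc1a3 values was not tested.

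Wscd1, Gas1, Mageh1 and Dzip1 had no count in either 2-week knockout. Wscd1 averaged 14.3 and 30.7 CPM at P0 and 3.09 CPM in 2-week controls, so it was at least 35.7-fold lower in the 2-week knockouts, against a floor of 3 counts over the group. The same bound was at least 30.9-fold for Gas1, at least 12.9-fold for Mageh1 and at least 6.88-fold for Dzip1. Among P0 controls, control 70 held the most of each and had the highest neuron marker sum (2000 CPM against 1026 to 1211 CPM). The part of other cells in the values of these genes was not tested. The P0 rise of Gas1, a growth-arrest protein, lost its call without knockout 73 or 76 or control 69, 71 or 74 (adjusted p = 0.0503, 0.1, 0.0677, 0.0823 and 0.0628), and its pattern held in 15 settings. Wscd1 and Dzip1 each kept theirs in 19, and Wscd1 lost its P0 call without knockout 68 (adjusted p = 0.0501). Among the cyclin-dependent kinase inhibitors, which hold cells out of the cell cycle, Cdkn1c (p57) averaged 12.9 and 27.2 CPM at P0 and 4.49 and 1.08 CPM at 2 weeks (interaction -3.13 ± 0.41, adjusted p = 4.25e-05). Over the 6 tested inhibitors, 3 interactions were above 0 and 2 below 0, against 21.7% and 9.07% of all genes.

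Cell-cycle genes rose together at 2 weeks. All 30 mitosis genes had an interaction above 0 and all 30 rose at 2 weeks, with a median effect of -0.23 at P0 and 2.34 at 2 weeks. Of 38 DNA replication genes 36 had an interaction above 0 and 35 rose at 2 weeks, with medians of -0.14 and 1.26. At P0, 4 mitosis genes and 6 replication genes fell, but under library totals the medians at P0 were 0.13 and 0.23, and without knockout 73 the median of the mitosis genes was 0.06 and 3 replication genes fell, so no direction is given at P0. At 2 weeks summed mitosis genes were at 574 to 714 CPM in controls and at 2688 and 3225 CPM in knockouts, above the 1554 to 1926 CPM of P0 controls. Between the ages this sum went down in controls and up in knockouts.

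Ccnb2, a mitotic cyclin (chr9:70407692-70421547, minus strand), stood at 73.6, 60.2, 70.3 and 82.3 CPM in P0 controls and at 64.5, 51.9 and 54.4 CPM in P0 knockouts. The 2-week controls held 13.9, 19.3, 14.8 and 18.1 CPM and the 2-week knockouts 111.1 and 151.7 CPM. The P0 groups overlapped, and both 2-week knockouts lay above every other library. The effect was -0.33 ± 0.15 at P0 (adjusted p = 0.105) and 3.00 ± 0.17 at 2 weeks (adjusted p = 6.45e-09), with an interaction of 3.33 ± 0.23 (adjusted p = 1.11e-07). Mki67, the proliferation antigen, averaged 180.4 and 136.6 CPM at P0 and 86.8 and 341.6 CPM at 2 weeks (interaction 2.38 ± 0.21, adjusted p = 1.33e-06). Its P0 fall of -0.40 ± 0.14 (adjusted p = 0.0383) was lost in 13 of 20 settings, library totals (-0.04, adjusted p = 0.867) and the omission of knockout 68 (adjusted p = 0.15) or 73 (adjusted p = 0.633) among them. The survivin gene Birc5 and the mitotic kinase Aurkb had interactions of 2.98 ± 0.24 and 2.88 ± 0.25. Among replication genes, the helicase subunits Mcm5 and Mcm6 had interactions of 2.15 ± 0.27 and 2.049 ± 0.22, and the ribonucleotide reductase subunit Rrm2 one of 2.40 ± 0.26 (adjusted p = 6.73e-06). Mcm6 kept its pattern in 18 of 20 settings.

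Cell-cycle promoters are known for short shared letters, and the windows below show where the cell-cycle genes carry them. Sequences are from RefSeq, build GRCm38.p6, read 5′ to 3′ on the strand of the gene, upstream of the start, with the match in capitals. The CHR letters of mitotic promoters are TTTGAA, and the E2F letters of replication promoters were taken as TTTCCCGC, TTTGGCGC, TTTCGCGC or TTTGCCGC, each on either strand and with overlapping matches joined.
Ccnb2 (chr9:70421686-70421751, minus strand): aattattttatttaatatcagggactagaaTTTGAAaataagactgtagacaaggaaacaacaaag
Mki67 (chr7:135716442-135716507, minus strand): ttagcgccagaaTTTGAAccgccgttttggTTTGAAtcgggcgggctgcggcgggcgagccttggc
Ube2c (chr2:164769870-164769928, plus strand): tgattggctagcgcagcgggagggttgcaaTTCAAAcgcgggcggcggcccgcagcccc
Mcm6 (chr1:128359715-128359782, minus strand): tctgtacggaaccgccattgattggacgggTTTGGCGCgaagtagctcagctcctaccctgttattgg
Mcm5 (chr8:75109330-75109397, plus strand): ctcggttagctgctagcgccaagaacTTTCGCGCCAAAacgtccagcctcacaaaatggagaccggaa
Cdc6 (chr11:98907983-98908050, plus strand): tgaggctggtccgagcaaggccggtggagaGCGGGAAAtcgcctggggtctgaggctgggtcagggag
In windows from 250 bases before to 50 after the start, the CHR letters were present in 73.1% of 26 windows of the mitosis list and in 17.9% of all 32851 windows. The E2F letters were present in 36.1% of 36 windows of the replication list and in 2.26% of all windows. The CCAAT box, the letters CCAAT on either strand, was in 76.9% of mitosis windows, 58.3% of replication windows and 37.4% of all. Of the genes whose rise grew, 15.1% of 1951 windows held the CHR letters and 4.77% the E2F letters. A match is a description of the letters and not of a bound site.

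Type I interferon response genes, which restrict viruses, had an interaction above 0 in 31 of 32 cases. At P0 14 fell, and at 2 weeks 25 rose. The summed level was 613.5 to 846.5 CPM in P0 controls and 336.6 to 549.2 CPM in P0 knockouts, and 535.3 to 575.7 CPM in 2-week controls against 1401 and 1683 CPM in 2-week knockouts. Bst2, the membrane tether tetherin, averaged 78.2 and 46.8 CPM at P0 and 47.7 and 239.4 CPM at 2 weeks (interaction 3.07 ± 0.24, adjusted p = 2.62e-07). Its P0 fall did not pass without knockout 73 (adjusted p = 0.0581), and its pattern held in 18 of 20 settings. Zbp1, a nucleic acid sensor, averaged 5.86 and 4.53 CPM at P0 and 0.910 and 26.6 CPM at 2 weeks, with an interaction of 5.23 ± 0.47 (adjusted p = 1.34e-06). Xaf1, an inhibitor of apoptosis blockers, fell by 1.57 at P0 and rose by 1.66 at 2 weeks on the log2 scale. Ifitm3 rose at 2 weeks by 6.06 ± 0.42, to 121.6 and 301 CPM in knockouts 80 and 89, and those 2 libraries differed for it in the direction of the neutrophil and monocyte sums. The interferon sum, Bst2 (204 and 274.8 CPM) and Zbp1 (22.8 and 30.4 CPM) differed the same way, and so did the mitosis and replication sums. Ifi27l2a differed the other way (115.5 and 92.7 CPM). With 2 libraries a shared direction does not tell sources apart, and the part of other cells in these values was not tested.

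Interferon-responsive promoters carry an element built of 2 copies of GAAA with 2 bases of any kind between them, searched on either strand and shown here in capitals, with overlapping copies joined.
Bst2 (chr8:71537557-71537626, minus strand): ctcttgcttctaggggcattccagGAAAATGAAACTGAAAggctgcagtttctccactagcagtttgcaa
Oas1a (chr5:120907526-120907569, minus strand): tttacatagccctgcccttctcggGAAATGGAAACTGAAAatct
Isg15 (chr4:156200845-156200914, minus strand): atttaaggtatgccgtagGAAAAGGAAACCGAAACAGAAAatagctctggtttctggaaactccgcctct
These letters were present in 60% of 25 windows of the interferon list and in 3.44% of all windows. They were in 4.72% of windows of genes whose rise grew, 4.6% of those that fell then rose and 4.58% of those whose fall faded. Oas1a, an oligoadenylate synthetase, and Isg15, a ubiquitin-like modifier, had effects of -0.09 and -0.76 at P0 and 3.79 and 2.33 at 2 weeks, and both had a rise that grew.

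Of 20 antigen presentation and co-stimulation genes, 14 had an interaction above 0, 6 rose and 7 fell at P0, and 12 rose at 2 weeks. At 2 weeks 2 fell, against 14.7% of all genes. Without knockout 80 or 89 or 2-week control 83, 1 fell. The pattern was rise grew for 8, fell then rose for 3 and fall faded for 3. H2-Aa, a class II antigen-presenting chain, averaged 24.6 and 71.04 CPM at P0 and 0.571 and 129.2 CPM at 2 weeks (interaction 6.35 ± 0.53, adjusted p = 7.77e-07). Cd40, a co-stimulatory receptor, had no count in the 4 2-week controls and stood at 15.4 and 30.3 CPM in the 2-week knockouts, at least 421-fold higher against a floor of 3 counts over the group. The P0 rise of Cd40 did not pass without knockout 73 (adjusted p = 0.0515) or 76 (adjusted p = 0.0957), and its interaction passed in all 20 settings. Axl, a receptor for dying cells, stood at 95.0, 85.9, 105.5 and 90.3 CPM in P0 controls, at 101.6, 97.7 and 98.0 CPM in P0 knockouts, and at 27.6, 29.1, 24.5 and 36.5 CPM in 2-week controls. In 2-week knockouts 80 and 89 it stood at 540.1 and 568.7 CPM. The P0 groups overlapped, the 2-week groups were apart, and the interaction was 4.17 ± 0.19 (adjusted p = 2.38e-09).

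Lyz2, lysozyme of myeloid cells, averaged 1206 and 1545 CPM at P0 and 318.6 CPM in 2-week controls, and stood at 8725 and 22080 CPM in 2-week knockouts 80 and 89. Its interaction was 5.24 ± 0.47 (adjusted p = 1.78e-06), and the difference between knockouts 80 and 89 ran the same way as in the neutrophil and monocyte sums. That shared direction rests on 2 libraries, and the source of the Lyz2 reads was not tested. Monocyte markers all rose at 2 weeks (12 of 12), 9 rose at P0 and 11 had an interaction above 0. Ccr2, the chemokine receptor of inflammatory monocytes, averaged 40.1 and 139.3 CPM at P0 and 11.7 CPM in 2-week controls, and stood at 290.7 and 655.5 CPM in 2-week knockouts. Of 17 neutrophil markers 13 had an interaction above 0, 16 rose at P0 and 16 rose at 2 weeks. Above 0 were 2 without knockout 89 and 7 without knockout 73, and 10 rose at P0 without knockout 76. S100a8, a calcium-binding alarmin, averaged 270.5 and 1522 CPM at P0 and 76.04 CPM in 2-week controls, and stood at 3455 and 9388 CPM in 2-week knockouts. The S100a8 interaction of 3.91 ± 0.95 (adjusted p = 0.00902) was 3.02 and did not pass without knockout 89 (adjusted p = 0.0811), the 1 setting of 20 that ended its pattern.

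Sirpb1c, Arhgef37 and Ms4a8a also had no count in the 2-week controls and were at least 523-fold, 226-fold and 230-fold higher in the 2-week knockouts, with interactions that passed in all 20 settings. Sirpb1c belongs to a family of near-identical receptors whose reads may be shared. Cd209a, a C-type lectin of dendritic cells and macrophages, was at least 298-fold higher at 2 weeks by the same floor. The Cd209a interaction (adjusted p = 0.0226, pattern in 15 settings) did not pass without knockout 80, 89 or 68 or without P0 control 70 (adjusted p = 0.077, 0.0609, 0.0515 and 0.0623), and P0 control 69 had 0.0698 CPM of it against 2.65 to 3.18 CPM in the other controls. Cmah, an enzyme of sialic acid synthesis, had 2 counts in the 2-week controls and 1785 in the 2-week knockouts.

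Falls that grew included regulators and adhesion receptors. Sall3, a zinc-finger repressor related to Sall1, stood at 102.3, 76.5, 95.5 and 99.6 CPM in P0 controls and at 53.1, 34.5 and 31.6 CPM in P0 knockouts. Later controls held 192.7, 188.9, 193 and 191.8 CPM at 2 weeks, and the 2-week knockouts 0.551 and 0.376 CPM. The groups were apart at both ages and the fall went from -1.24 ± 0.16 to -8.68 ± 0.32, an interaction of -7.45 ± 0.34 (adjusted p = 2.38e-09). Sall1 itself had effects of -3.38 ± 1.21 at P0 (adjusted p = 0.053) and -3.13 ± 1.41 at 2 weeks (adjusted p = 0.124), neither of which passed, and an interaction of 0.26 (adjusted p = 0.985). Mrc2, the endocytic collagen receptor (chr11:105292643-105351139, plus strand), averaged 6.62 and 7.93 CPM at P0. It stood at 96.5, 94.6, 73.5 and 117.7 CPM in 2-week controls and at 1.04 and 0.0537 CPM in 2-week knockouts, so between the ages its level went up in controls and down in knockouts (interaction -7.76 ± 0.76, adjusted p = 5.02e-06).

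Hspb3, a small heat-shock protein, averaged 11.5 and 1.55 CPM at P0 and 29.0 CPM in 2-week controls, and had 1 count in the 2-week knockouts. Lypd6 was at 8.71 and 11.3 CPM at P0 and 11.95 CPM in 2-week controls, and had 2 counts in the 2-week knockouts. Scube3 had no count in the 2-week knockouts and was at least 15.5-fold lower than its 1.32 CPM in the controls, with the pattern in 19 settings. Unc79 averaged 15.3 and 32.5 CPM at P0 and 4.48 CPM in 2-week controls, with 2 counts in the 2-week knockouts, and held the pattern in 12 of 20 settings. Lypd6, Scube3 and Unc79 showed no fall at P0. Their P0 effects were 0.37, 0.65 and 1.09 (log2) and did not pass (adjusted p = 0.438, 0.263 and 0.0861). For Unc79 every P0 knockout lay above every P0 control. Pecam1, an adhesion molecule of endothelium and some myeloid cells, averaged 19.9 and 14.6 CPM at P0 and 63.4 and 8.83 CPM at 2 weeks (interaction -2.40 ± 0.26, adjusted p = 8.35e-06). The endothelial cadherin Cdh5 averaged 6.19 and 9.47 CPM at P0 and 2.98 and 0.111 CPM at 2 weeks (interaction -5.23 ± 0.55), with the pattern kept in 16 settings. At P0 the Cdh5 effect was 0.61 and did not pass (adjusted p = 0.0751). Both genes are on the vascular marker list, whose other 14 members summed to 143 to 229 CPM in P0 controls and 401.7 to 474 CPM in P0 knockouts. At 2 weeks those 14 summed to 11.9 to 17.4 CPM in controls and 22.5 and 24.8 CPM in knockouts. The sum was higher in knockouts than in controls at both ages, but its members did not all move that way. Kdr, 1 of the 14, rose then fell, with the pattern in 18 settings. At 2 weeks Kdr averaged 6.82 and 2.43 CPM, a log2 change of -1.48 (adjusted p = 0.00262). Over all 16 list members 4 rose and 3 fell at 2 weeks, with a median of -0.465. The part of the other markers in the values of Pecam1 and Cdh5 was not tested. Ier5, an immediate early gene, fell by 0.53 at P0 and by 1.91 at 2 weeks on the log2 scale (interaction -1.38 ± 0.20, adjusted p = 0.000106). Its P0 fall did not pass without knockout 73 (adjusted p = 0.157).

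The list of homeostatic microglia genes kept its direction and lost much of its size. At P0 29 of 30 members fell, with a median of -3.16, and at 2 weeks 21 fell, with a median of -1.51. Without knockout 89, 11 fell at 2 weeks. Of the 30, 18 had an interaction above 0, all with a fall that faded, and 1, Selplg, had one below 0 (-1.08, adjusted p = 0.0013). Without knockout 80, 11 were above 0 and 4 below. Summed, the list stood at 39170 to 49900 CPM in P0 controls and 3835 to 8248 CPM in P0 knockouts, and at 133300 to 154200 CPM in 2-week controls against 52220 and 38900 CPM in knockouts 80 and 89. The 2-week knockouts lay near the P0 controls, and the 2-week controls above both. The purine receptor P2ry12, Tmem119 and Siglech had falls of 4.49, 2.66 and 3.49 at P0 and of 3.45, 1.70 and 2.01 at 2 weeks on the log2 scale, and their interactions did not pass (adjusted p = 0.362, 0.0631 and 0.11).

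Cx3cr1 stood at 2832, 3448, 3560 and 3381 CPM in P0 controls and at 272.9, 46.8 and 59.8 CPM in P0 knockouts 68, 73 and 76. The 2-week controls held 8390, 8721, 8246 and 7695 CPM and the 2-week knockouts 2392 and 2140 CPM. The groups did not overlap, and the library labelled knockout 68, which also had the highest Hdac1 of the 3, held the most Cx3cr1 among the P0 knockouts. Its interaction was 2.84 ± 0.67 (adjusted p = 0.00618). The 2-week fall of -1.87 ± 0.56 (adjusted p = 0.02) did not pass without knockout 80 (adjusted p = 0.123) or 89 (adjusted p = 0.174). Cx3cr1 shares exon bases with a predicted gene.

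Fcrls, an Fc receptor-like protein of microglia, averaged 3006 and 121.6 CPM at P0 and 5289 and 2550 CPM at 2 weeks (interaction 3.57 ± 0.51, adjusted p = 0.000108). Its 2-week effect of -1.05 ± 0.40 did not pass (adjusted p = 0.0546). Trem2, a lipid-sensing receptor, stood at 736, 477.8, 774.3 and 685.8 CPM in P0 controls and at 69.6, 8.97 and 12.8 CPM in P0 knockouts 68, 73 and 76. At 2 weeks it stood at 1065, 1211, 1225 and 1083 CPM in controls and at 626.3 and 531.7 CPM in knockouts. The knockouts lay below the controls at both ages, but the 2-week effect of -0.99 ± 0.63 did not pass (adjusted p = 0.269). The Trem2 interaction was 3.47 ± 0.81 (adjusted p = 0.00693), with the pattern kept in 19 settings. C1qa, C1qb and C1qc, the chains of complement C1q, fell by 2.49, 2.42 and 2.69 at P0 and had effects of -0.54, -0.58 and -0.56 at 2 weeks on the log2 scale. Of these 3 only C1qb passed at 2 weeks (adjusted p = 0.0334), and it did not pass without knockout 89 (adjusted p = 0.242) or 2-week control 77 (adjusted p = 0.057) or 81 (adjusted p = 0.0536).

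**Figure D4:**
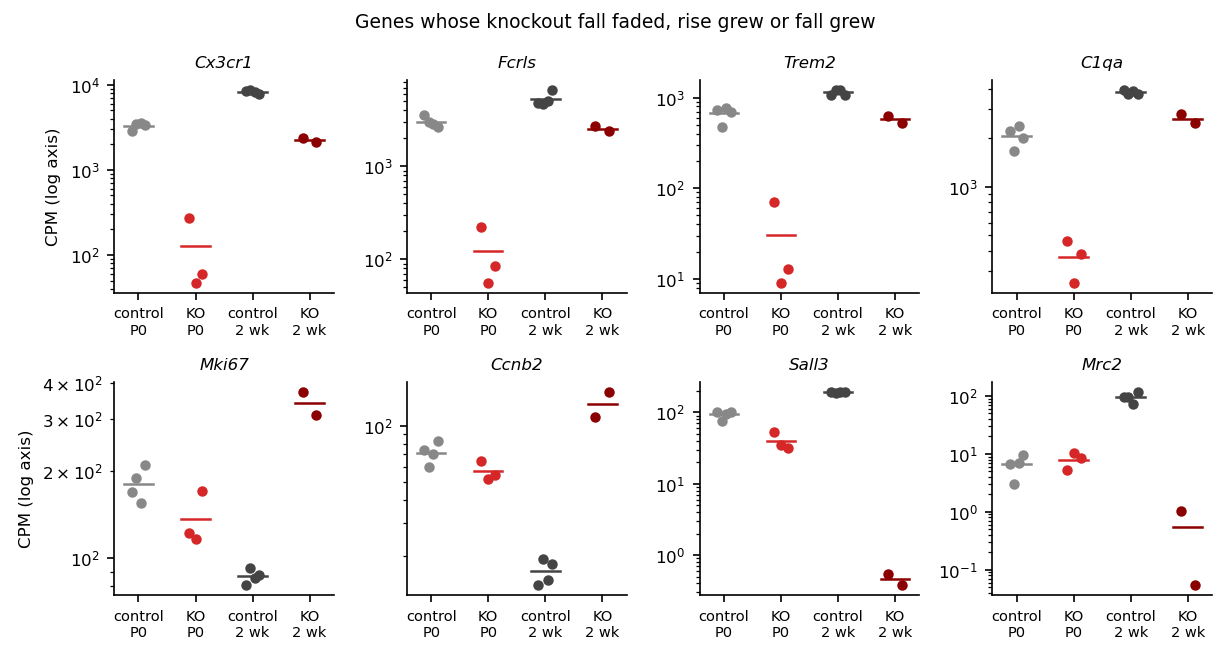
CPM (log axis) of 8 genes by group; each dot is a library and each bar the group mean. Cx3cr1, Fcrls, Trem2 and C1qa show the falls that faded, Mki67 and Ccnb2 are higher in the 2-week knockouts than in every other library, and Sall3 and Mrc2 are near 0 there.

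Of 24 transcription factors of the macrophage lineage 19 fell at P0, 9 fell and 4 rose at 2 weeks, and 13 had an interaction above 0 against 1, Sall3, below 0. The 4 rises at 2 weeks were near the 18.6% of all genes. Bhlhe41, a helix-loop-helix repressor, averaged 85.3 and 15.5 CPM at P0 and 139.6 and 150.2 CPM at 2 weeks (interaction 2.57 ± 0.27, adjusted p = 5.4e-06). Irf8 and Runx1, which specify microglia, fell by 1.88 and 1.67 at P0, and at 2 weeks their changes were -0.16 and -0.29 (adjusted p = 0.598 and 0.255). Spi1, the gene of PU.1, fell by 0.79 at P0 and had an effect of 0.42 at 2 weeks (adjusted p = 0.103). The letters GAGGAAGT, a PU.1 match on either strand, were in 5.92% of the windows of genes whose fall faded and in 3.2% of all windows.

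Lysosome genes, which encode the degradative enzymes and membrane proteins of phagocytes, fell throughout at P0 (32 of 32, median -2.08). At 2 weeks 8 rose and 5 fell, with a median of -0.03, and 28 interactions were above 0. Of all genes 18.6% rose and 14.7% fell at 2 weeks. Without knockout 89, 4 rose and 3 fell at 2 weeks, and without the library labelled knockout 68, 8 fell. Summed, they stood at 33780 to 49500 CPM in P0 controls, 6159 to 10620 CPM in P0 knockouts, 54100 to 63760 CPM in 2-week controls and 43960 and 44100 CPM in 2-week knockouts. Lipa, the lysosomal acid lipase, averaged 307 and 60.3 CPM at P0 and 280.1 and 246.3 CPM at 2 weeks (interaction 2.16 ± 0.18, adjusted p = 5.47e-07). Ctsc, a cathepsin that activates serine proteases of granulocytes, reversed: it averaged 849.9 and 364.6 CPM at P0 and 701.6 and 2740 CPM at 2 weeks (interaction 3.19 ± 0.23, adjusted p = 1.62e-07). The 2-week knockouts had 2360 and 3120 CPM of it, against 622.5 to 759.1 CPM in controls.

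**Figure D5:**
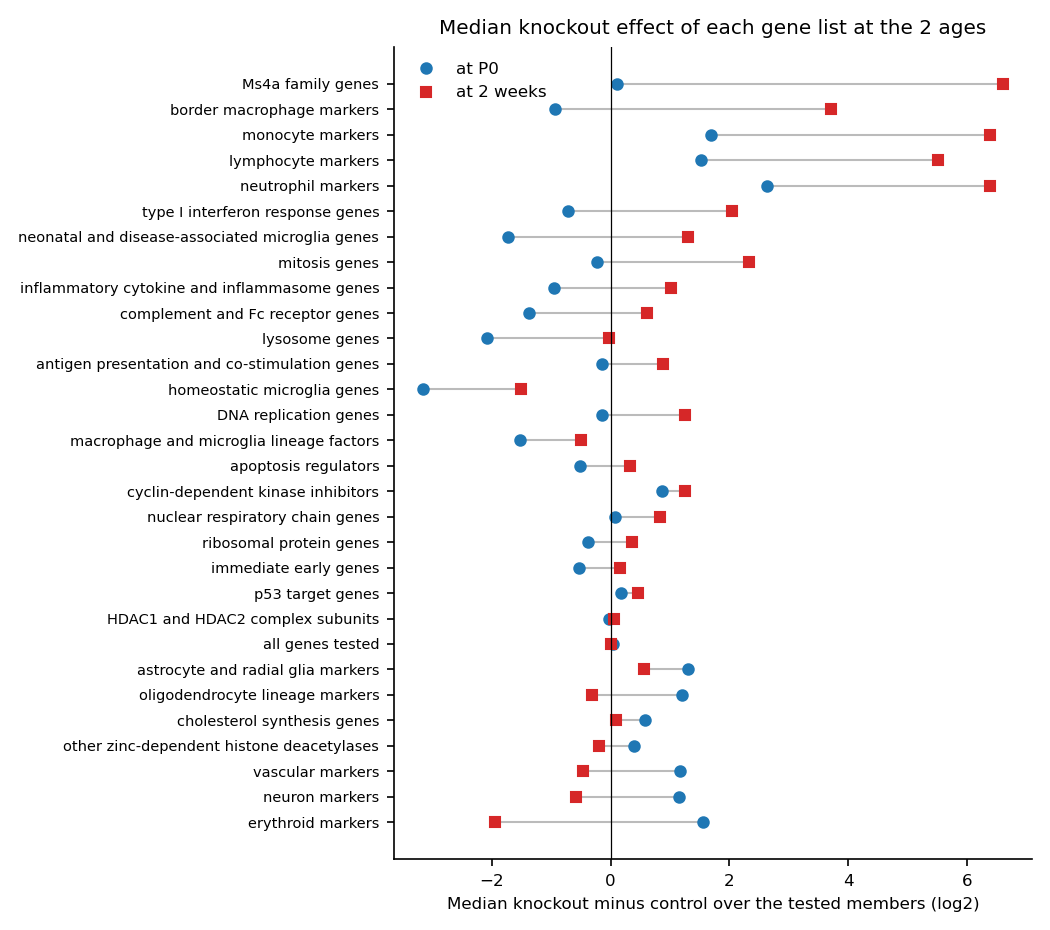
Median knockout minus control (log2) over the tested members of 29 gene lists and over all genes, at P0 (blue circles) and 2 weeks (red squares), ordered by the median interaction. The Ms4a, border macrophage, monocyte, lymphocyte and neutrophil lists head the order, and vascular, neuron and erythroid markers, at its foot, have medians above 0 at P0 and below 0 at 2 weeks. Of 13 tested lymphocyte markers 10 rose and 1 fell at 2 weeks, with 5 interactions above 0 and 1 below. Their summed level over 15 genes was nonetheless lower in 2-week knockouts (78.99 and 53.94 CPM) than in 2-week controls (101.9 to 117 CPM).

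Rises that faded included genes of neurons, oligodendrocytes and red cells with levels near 0 at 2 weeks. Of 18 neuron markers 17 rose at P0, and 5 interactions were below 0. That count was 2 without knockout 80 and 1 without knockout 89. Gap43, a growth cone protein, averaged 121.7 and 257 CPM at P0 and 0.575 and 0.376 CPM at 2 weeks, and Olig1, an oligodendrocyte lineage factor, 37.7 and 124.8 CPM at P0 and 0.459 and 0.192 CPM at 2 weeks. The Gap43 interaction (-1.69 ± 0.54, adjusted p = 0.0263) did not pass without knockout 80 or 89 or 2-week control 77 (adjusted p = 0.0552, 0.14 and 0.065), and the Olig1 interaction (-2.80 ± 0.80, adjusted p = 0.0137) without knockout 80 or 2-week control 78 (adjusted p = 0.0763 and 0.0515), and both kept the pattern in 15 settings. Hap1 and Adamts7, from 20.4 to 71.3 and from 4.53 to 13.5 CPM between control and knockout at P0, were under 1 CPM on average in both 2-week groups and kept the pattern in 15 and 8 settings. The globin gene Hba-a1, which has a near-identical copy, averaged 125 and 382.2 CPM at P0 and under 1 CPM in both groups at 2 weeks (16 settings). On the list of 13 oligodendrocyte lineage markers 2 had a rise that faded and 9 no called interaction. Mbp had a rise that grew and Mog a fall that grew, each in 19 settings. Of 8 tested erythroid markers 2 had a rise that faded, 2 rose then fell, 1 met no definition and 3 had no called interaction. Among genes that stayed expressed, the sterol enzymes Cyp51, Tm7sf2 and Hmgcs1 rose by 0.58, 0.81 and 0.86 at P0 and had effects of -0.42, -0.35 and 0.08 at 2 weeks that did not pass, with the pattern in 18, 20 and 19 settings. Over 23 cholesterol synthesis genes 12 rose at P0 and 3 interactions were below 0, against 16.3% and 9.07% of all genes. Below 0 were 5 without knockout 89 and 6 without P0 control 70, and 7 rose at P0 without control 71.

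Of the 9 other zinc-dependent deacetylases 4 had an interaction below 0 and 1 above, and 2 were below 0 without knockout 89. Hdac9, a class IIa enzyme, averaged 43.6 and 36.0 CPM at P0 and 45.1 and 131.3 CPM at 2 weeks (interaction 1.82 ± 0.21, adjusted p = 1.59e-05). Hdac11 averaged 5.20 and 9.31 CPM at P0 and 6.51 and 2.42 CPM at 2 weeks (interaction -2.26 ± 0.43, adjusted p = 0.000869), and its P0 rise did not pass without knockout 68 or controls 69 or 71 (adjusted p = 0.0742, 0.0599 and 0.0505), with the pattern in 16 settings. Of 33 tested subunits of the SIN3, NuRD, CoREST and related complexes, 24 had no called interaction, 6 were above 0 and 3 below, which is near the 21.7% and 9.07% of all genes. Below 0 were 5 without knockout 73 and 1 without P0 control 71. Sap30, a SIN3 subunit, had an interaction of 1.85 ± 0.25 (adjusted p = 5.66e-05), with 82.9 CPM in the 2-week knockouts against 23.8 CPM in their controls. Of 30 p53 target genes 12 had an interaction above 0, against 21.7% of all genes, and fewer had one without knockout 89. Cdkn1a (p21) had effects of 0.40 ± 0.18 at P0 (adjusted p = 0.0997) and 1.64 ± 0.20 at 2 weeks (adjusted p = 1.13e-05). Nuclear genes of the respiratory chain had an interaction above 0 in 58 of 81 cases, a count that was 33 without knockout 89, 29 without knockout 73 and 24 under library totals. Ribosomal protein genes had one in 37 of 80, and 18 without knockout 73 or under library totals, against 21.7% of all genes with every library and TMM.

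The tamoxifen-induced knockout gave a second measure of the same difference in other animals with controls of their own: 15 libraries of mice with the floxed alleles and a Cx3cr1-CreERT2 transgene, or without it, at P0 and 2 weeks, all exposed to tamoxifen before birth. Of 17914 genes tested there, 478 (2.67%) had an interaction above 0 and 307 (1.71%) below 0. Among genes whose fall faded in the constitutive model, 147 of 1564 had an interaction above 0 in the inducible model and 22 one below 0. Among genes that fell then rose the counts were 11 above and 13 below, of 534. Among genes whose rise grew, 24 of 2027 were above 0 and 69 below, and among genes whose fall grew 13 of 853 were below 0 and 67 above. Apoe and Spp1 had inducible interactions of 1.86 and 1.78 (adjusted p = 0.00131 and 0.00282). From P0 to 2 weeks the inducible effect went from -0.79 to 1.07 for Apoe and from -1.51 to 0.26 for Spp1. Igf1, C3ar1 and Cxcl16, which also fell then rose, had inducible interactions of 0.56, 0.41 and 0.65. None of those 3 passed (adjusted p = 0.343, 0.249 and 0.177). Cx3cr1, Trem2 and Bhlhe41 had 1.86, 1.67 and 1.29 (adjusted p = 2.05e-05, 0.000687 and 0.000166). For Sall3, Axl and Lyz2 the inducible values were 0.48, 0.33 and -0.28, none of which passed (adjusted p = 0.314, 0.603 and 0.827). Hspb3 had 1.36 there (adjusted p = 0.00735), of the other sign, and Lypd6 -2.4 (adjusted p = 0.00557), of the same sign. The difference between the 2 models was not tested.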

How the data were processed

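The deposited table of whole-number counts per gene was used (48526 genes, of which 48058 had a symbol in GENCODE vM21 on GRCm38). Per the submitters' processing notes, CASAVA 1.8.2, STAR 2.5.2b, GRCm38 and featureCounts 1.5.1 of Subread were used, and per the labels' protocols the SMARTer Ultra Low Input kit and Nextera XT, which do not mark strand. The deposited CPM and log2 tables were not used. Totals were 12307658 to 22605783 counts. Labels give each library a number but not litters or pools, so p-values measure the spread between these samples.

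In R 4.3.3, genes were kept with filterByExpr, scaled by TMM and tested with edgeR 4.0.16 (quasi-likelihood, robust, 4 group means) with Benjamini-Hochberg adjustment over all genes at 0.05. CPM values use the scaled totals of the kept genes. Named genes were Hdac1, Hdac2 and Cx3cr1; for each of 6 patterns the 6 largest interactions among genes with a group mean of at least 10 CPM and no overlap at each called age, leaving out predicted models and sex-linked marker genes; and up to 4 or 6 called members of each list with the smallest adjusted p. P2ry12, Tmem119, Siglech, Selplg, Sall1, Spi1, Oas1a, Isg15, Ube2c and Cdc6 were named outside this rule, after their values were seen. The members and the 30 lists were chosen with earlier results of these data known. Alternatives were RLE factors, library totals, no low-count filter, DESeq2 1.42.0, limma 3.58.1 voom, all 14 groups, sex as a term and each of 13 libraries left out. The inducible comparison, list sums without members described beside them, and the counts of genes kept in all settings were added after seeing the data. Scripts were tested on simulated data. Of 156 named genes 42 share exon bases with another gene, and strand cannot resolve those. Promoters (250 bases before to 50 after the start) are from RefSeq, GRCm38.p6.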

Additional observations from a re-analysis of the deposited data

Results flagged for a closer look

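The knockout effect differed between the ages by the interaction test for 4336 genes with a higher and 1814 genes with a lower value at 2 weeks. In 60 checks of list sums in the 2 control groups of 4, some 1 in 20 of which would stand out by chance, 6 had a library far from the other 3. Control 83 at 2 weeks stood above the rest for DNA replication genes (1082 CPM) and below them for cyclin-dependent kinase inhibitors (76.96 CPM). Control 70 at P0 stood below the rest for interferon response genes (613.5 CPM) and above them for cholesterol synthesis genes (1038 CPM), oligodendrocyte lineage markers (291.7 CPM) and vascular markers (253.7 CPM).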

How the results depend on the processing

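Of 10 counts recomputed under 20 other settings, the following moved by more than 1.5 times. Genes that fell then rose (534) numbered 341 with RLE size factors, 292 with library totals, 344 with all 14 groups in the fit, and 267 to 609 with 1 library left out. Genes that rose then fell (362) numbered 675 in DESeq2 and 568 with library totals. Genes whose rise faded (319) numbered 684 in DESeq2, 589 with RLE factors, 510 with all 14 groups and 849 with library totals. Genes whose fall faded (1567) numbered 1009 with RLE factors, 776 with library totals and 871 to 1691 with 1 library left out. Genes whose fall grew (863) numbered 544 to 948 with 1 library left out, and interactions below 0 (1814) numbered 2733 in DESeq2. The cause was not tested. The direction of the interaction changed for Hdac1 (-1.31 to 0.11 with 1 library left out, 0.11 without P0 knockout 68) and Hdac2 (-0.57 to 0.39, with 0.39 without 2-week knockout 80, 0.19 without P0 knockout 68, 0.05 and 0.03 without P0 control 70 or 71), neither of which was called in any of these. No other gene of the naming rule changed the direction of its interaction in these 20 settings. No paired analysis was possible because the numbers name single libraries and the groups compared share none. With 2 knockout libraries at 2 weeks, both male, leaving 1 out leaves a lone library that is assumed to vary like the other groups. Levels of genes near 0 CPM at 2 weeks are set by a few counts.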
